A study of Mus musculus with 10 samples.

Results

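The 10 genes described here, Srsf1, Srsf2, Srsf3, Srsf4, Srsf5, Srsf6, Srsf7, Srsf9, Srsf10 and Srsf11, encode the SR splicing factors. They were taken by symbol from the 43629 genes counted in mouse skeletal muscle, and each symbol matched 1 Ensembl identifier. The study compared wild-type (WT) mice with mice lacking IMP2 (KO), an RNA-binding protein encoded by Igf2bp2. All animals were C57BL/6 males, 6 weeks old and fed a high-fat diet for 2 weeks. The WT group is labelled wild type and the KO group IMP2 null, whereas the study's design text speaks of a muscle-specific knockout, and the Cre driver is not named in either. Total RNA was sequenced from 3 WT and 3 KO samples, and RNA recovered with the laboratory's own antibody to IMP2 (IP) from 2 WT and 2 KO samples. The KO IP, in which the target protein should be missing, serves as the background of the antibody. The labels do not say whether replicates came from separate animals, so each p-value reflects the spread among these samples alone, which may be technical.

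SR proteins bind pre-mRNA through RNA recognition motifs at their amino-terminal end and recruit the splicing machinery through a tail of alternating arginine and serine, the RS domain. Kinases of the CLK and SRPK families phosphorylate that tail, which governs entry into the nucleus, release from nuclear speckles and activity in splicing. Several SR proteins also accompany spliced mRNA out of the nucleus. Most SR genes limit their own expression by including a poison exon or retaining an intron, which sends the transcript to nonsense-mediated decay or holds it in the nucleus. In the GENCODE vM21 annotation (GRCm38) 9 of the 10 genes, all but Srsf10, have 1 to 3 transcripts marked for nonsense-mediated decay, and 8 of 10, all but Srsf9 and Srsf10, have 1 to 11 transcripts with a retained intron. The counts are per gene and do not separate these forms.

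The genes lie at chr11:88047373-88053755 (Srsf1), chr11:116849901-116853094 (Srsf2), chr17:29032628-29043373 (Srsf3), chr4:131873617-131901706 (Srsf4), chr12:80945504-80950507 (Srsf5), chr2:162931528-162937121 (Srsf6), chr17:80200080-80207307 (Srsf7), chr5:115327177-115333080 (Srsf9), chr4:135855747-135869908 (Srsf10) and chr3:158010473-158036639 (Srsf11) of GRCm38. Exons of Srsf2 overlap exons of Mettl23 and Mfsd11 on the opposite strand. Whether strand was used in counting is not stated. If it was not, reads in the shared exons could be set aside as ambiguous and be missing from the Srsf2 count. Ambiguous reads made up 3.30% to 3.95% of reads in total RNA and 5.48% to 6.03% in IP. Their part in the Srsf2 values was not tested. Exons of Srsf1 and Srsf4 overlap the antisense genes Gm11508 and Gm12992, which held at most 0 and 11 counts in any library.

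The stretch that names the family can be read from the coding sequence. The 4 genes shown are those that stood lowest (Srsf2 and Srsf5) and highest (Srsf3 and Srsf9) in WT IP relative to WT total RNA. For each, the 120 coding bases of the GENCODE transcript with the most neighbouring arginine and serine codons are printed in the direction of the mRNA, and capitals mark each arginine or serine codon that stands next to a codon for the other residue.
Srsf2: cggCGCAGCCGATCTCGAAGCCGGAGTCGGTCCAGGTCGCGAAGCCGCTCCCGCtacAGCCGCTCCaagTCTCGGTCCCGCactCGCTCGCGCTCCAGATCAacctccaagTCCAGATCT
Srsf5: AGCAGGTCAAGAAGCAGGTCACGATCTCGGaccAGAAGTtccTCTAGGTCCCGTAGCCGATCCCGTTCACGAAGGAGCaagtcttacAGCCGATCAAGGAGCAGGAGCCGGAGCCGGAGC
Srsf3: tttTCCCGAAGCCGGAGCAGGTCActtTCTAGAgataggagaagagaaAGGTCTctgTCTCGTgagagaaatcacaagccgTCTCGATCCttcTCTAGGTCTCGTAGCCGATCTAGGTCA
Srsf9: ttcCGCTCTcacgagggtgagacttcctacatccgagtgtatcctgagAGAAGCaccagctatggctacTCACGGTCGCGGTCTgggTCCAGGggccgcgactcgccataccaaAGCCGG
The Srsf2 stretch lies in exon 2 of 3 on the minus strand at chr11:116852199-116852318, and 28 of its 39 neighbouring codon pairs joined arginine with serine. The Srsf5 stretch runs through exons 7 to 8 of 8 between chr12:80949603-80949834 on the plus strand, with 30 such pairs. The Srsf3 stretch runs through exons 4 to 6 of 6 between chr17:29040794-29041396 on the plus strand and held 19 pairs. The Srsf9 stretch, from exons 3 to 4 of 4 between chr5:115332275-115332680 on the plus strand, held 8 pairs. Over the whole coding sequence the number of pairs ran from 9 in Srsf9 to 106 in Srsf4. Per 100 codon pairs, all 10 genes stood at or above percentile 99.48 of 13093 genes with a coding sequence.

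Libraries held 9691580 to 14809788 gene counts in total RNA and 917462 to 4037480 in IP, with KO IP 1 the shallowest. Levels are given as CPM, the counts scaled to a common library size with TMM factors over all 10 libraries. Counts on Igf2bp2, the targeted gene, were 35, 37 and 48 in the WT total RNA libraries against 21, 19 and 21 in those of KO. The WT IP libraries held 28 and 4 of its counts (11.8 and 1.56 CPM), the KO IP libraries 9 and 25 (8.64 and 5.18 CPM). The total RNA difference was -0.36 ± 0.28 on the log2 scale (SE, edgeR quasi-likelihood test, Benjamini-Hochberg adjusted p = 0.897), so the genotypes rest on the labels. Skeletal muscle markers were present in every library, none of 12 at 0, and their summed level was 140993 CPM in WT total RNA 3 against 234110 to 323829 CPM in the other total RNA libraries. WT total RNA 3 also had the lowest share of reads aligned to several places, 26.1% against 33.5% to 36.9%. Islet hormone markers summed to 2362 CPM in KO total RNA 1, and the adipocyte markers to 1269 CPM in WT total RNA 2. Leaving out both of those libraries changed no call among the 10 genes.

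In total RNA the 10 genes together made up 586, 567 and 1123 CPM in WT and 572, 648 and 484 CPM in KO. WT total RNA 3 stood apart, and the other 5 libraries lay close together. In IP the sum was 492 and 446 CPM in WT and 656 and 772 CPM in KO, without overlap. Of all single genes tested between the IP groups, 20.8% lay lower in WT and 20.3% higher without overlap.

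**Figure D1:**
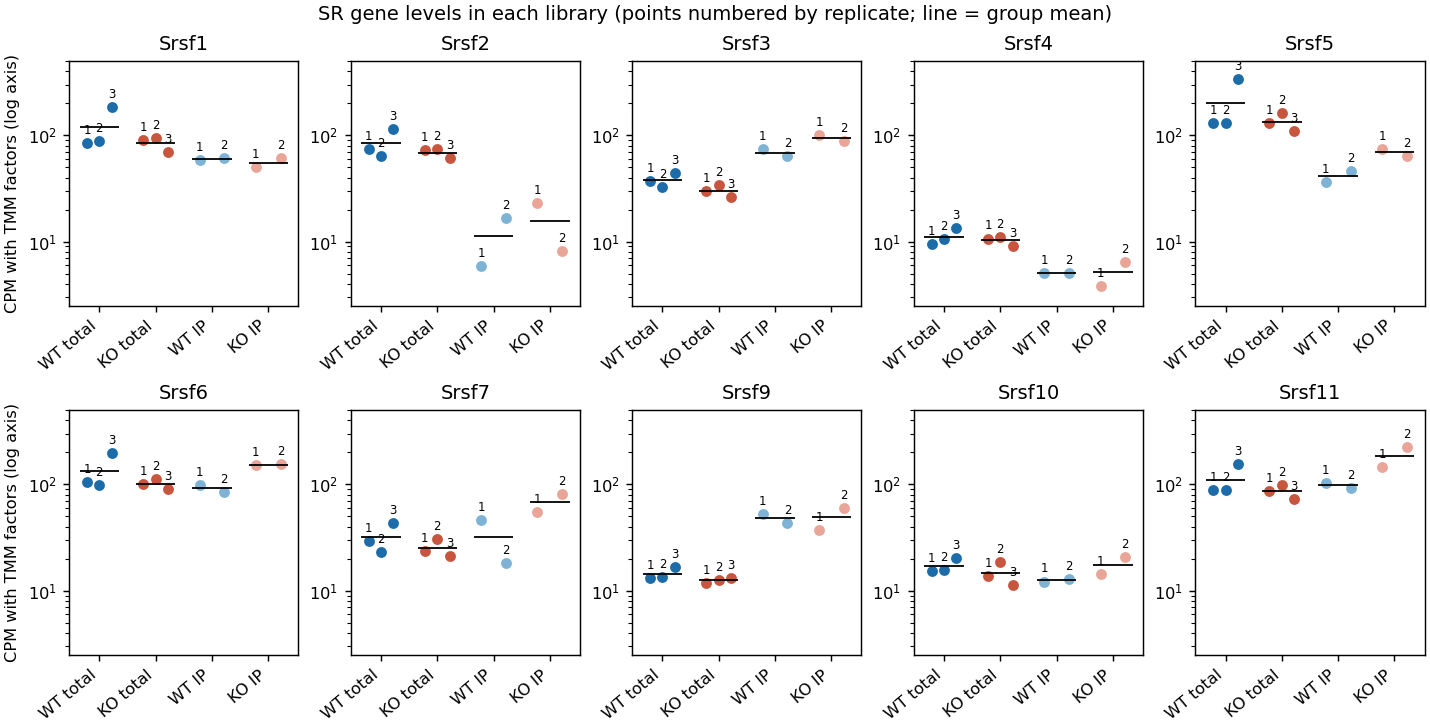
Level of each of the 10 SR genes (CPM with TMM factors, log axis) in 3 WT and 3 KO total RNA libraries and 2 WT and 2 KO IP libraries. Points are single libraries numbered by replicate and lines are group means; point 3 of WT total RNA is the highest total RNA value in all 10 panels.

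Per kilobase of exon, Srsf5 was the most abundant member in muscle total RNA, at 50.0 ± 30.2 CPM per kb in WT (SD, n = 3) and 33.6 ± 6.35 in KO (SD, n = 3). Srsf2 came next in WT total RNA at 28.5 ± 9.11 CPM per kb (SD, n = 3), then Srsf6 at 27.6 ± 11.2, Srsf1 at 20.9 ± 9.78 and Srsf11 at 13.1 ± 4.49. All 5 were highest in WT total RNA 3, so these SDs hold a shift common to the genes and do not measure how firm their order is. The order was not tested. Srsf7 and Srsf9 followed at 8.98 ± 2.89 and 8.69 ± 1.13 CPM per kb, Srsf3 at 4.80 ± 0.69, Srsf4 at 3.12 ± 0.57 and Srsf10 at 2.43 ± 0.39 CPM per kb (SD, n = 3). In KO total RNA the order was the same except that Srsf9 stood above Srsf7. Scaled to coding length, Srsf5 was again highest in both total RNA groups and Srsf4 lowest.

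The order differed in the IP. In WT IP, Srsf9 was highest at 29.1 ± 4.16 CPM per kb (SD, n = 2), followed by Srsf6 at 19.1 ± 2.04, and Srsf2 stood at place 8 of 10 with 3.82 ± 2.60. In KO IP, Srsf6 at 31.9 ± 0.85 and Srsf9 at 29.6 ± 9.87 led, and Srsf11 followed at 22.1 ± 6.67 CPM per kb (SD, n = 2). As shares of all counts on the 10 genes, Srsf5 made up 22.2% to 30.1% in the 6 total RNA libraries and 7.44% to 11.4% in the 4 IP libraries. Srsf2 made up 10.2% to 12.7% in total RNA and 1.05% to 3.75% in IP. Srsf11 moved the other way, from 13.7% to 15.7% in total RNA to 20.9% to 29.3% in IP, and Srsf3 from 3.89% to 6.33% to 11.4% to 15.4%. Scaled to coding length, Srsf3 ranked first in both IP groups, and Srsf9 stood at place 5 in WT IP and 7 in KO IP. The place of Srsf9 thus depends on the length used. Exon length here joins the exons of all annotated transcripts of a gene.

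The comparison of KO with WT total RNA asks whether loss of IMP2 went with another level of these mRNAs. None of the 10 passed the test, all 10 estimates lay below 0, and the direction came largely with 1 WT library. No gene at all was called in this comparison (0.0% of 13169 tested), and 569 genes (4.32%) had an unadjusted p under 0.05, none of them an SR gene. DESeq2 called 5 genes and no SR gene. Bulk RNA cannot tell fewer cells of a type from less RNA per cell.

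Srsf5 and Srsf1 had the largest estimates. Srsf5, which belongs with Srsf4 and Srsf6 to a group of closely related members with a pair of RNA recognition motifs, stood at 131, 130 and 339 CPM in WT and 131, 161 and 111 CPM in KO. Its log2 difference was -0.58 ± 0.36 (SE, edgeR adjusted p = 0.897), with the groups overlapping. Srsf1, the founding member and a general splicing factor that also acts in the cytoplasm, stood at 84.9, 89.3 and 184 CPM in WT and 91.2, 94.5 and 69.2 CPM in KO. The difference was -0.50 ± 0.30 (SE). In both genes WT libraries 1 and 2 lay within the range of the KO values and WT library 3 lay above all others.

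Srsf6 was at 105, 98.9 and 196 CPM in WT and 101, 113 and 90.8 CPM in KO, a difference of -0.40 ± 0.26 (SE). Srsf11, a factor with an RS domain whose role is less well defined, was at 88.1, 89.0 and 154 CPM in WT and 86.6, 98.9 and 72.9 CPM in KO, a difference of -0.37 ± 0.24 (SE). Srsf2, which stays in the nucleus and marks nuclear speckles, was at 73.9, 64.3 and 115 CPM in WT and 72.4, 73.8 and 60.6 CPM in KO (-0.30 ± 0.22, SE). These genes repeated the pattern of a single high WT library. Srsf3 and Srsf7, adaptors of the export receptor NXF1, differed by -0.34 ± 0.17 and -0.35 ± 0.25 (SE). Srsf3 was less uneven, at 37.2, 33.0 and 43.8 CPM in WT and 30.0, 34.2 and 26.1 CPM in KO.

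The 3 members with the smallest estimates were low in level. Srsf10, which activates splicing when phosphorylated and represses it when dephosphorylated, differed by -0.24 ± 0.22 (SE). Srsf9, a small member with a short RS tail, differed by -0.21 ± 0.17 and Srsf4 by -0.12 ± 0.20 (SE). Their levels ran from 9.16 to 20.2 CPM over the 6 libraries. The edgeR adjusted p was 0.897 for 9 of the 10 genes and 0.924 for Srsf4. WT and KO values overlapped for all 10 genes, whereas 4.76% of all genes tested lay higher and 4.85% lower in KO without overlap.

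The median over the 10 genes was -0.34 and over all genes tested -0.01, where 52.0% of genes lay below 0. Scaled to library size alone the median of all genes moved to -0.23 and that of the 10 to -0.58. Each of the 10 had its highest total RNA value in WT library 3, as did 28.7% of all genes tested. There it was 1.24 (Srsf9) to 2.60 (Srsf5) times the mean of WT libraries 1 and 2, with a median of 1.66 against 0.99 over all genes tested. Without that library the estimates of the 10 genes ran from -0.21 ± 0.16 for Srsf3 to 0.050 ± 0.17 for Srsf5 (SE), with a median of -0.032 and 6 of 10 below 0. The part of this library's lower muscle marker level in the result was not tested.

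**Figure D2:**
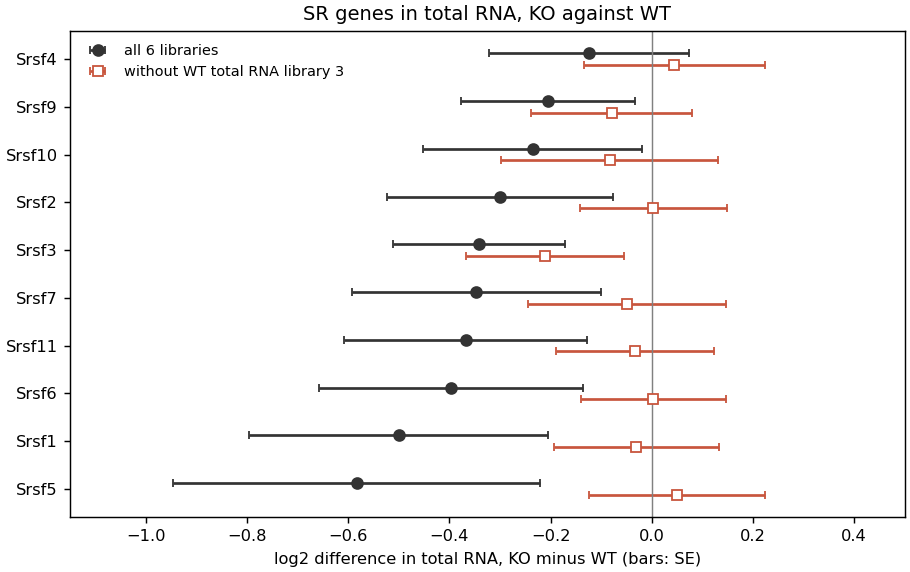
Log2 difference in total RNA, KO minus WT, for each SR gene, with all 6 libraries (filled circles) and without WT total RNA library 3 (open squares); bars are SE. With all libraries every gene lies below 0, from -0.58 to -0.12, and without the 1 WT library the estimates lie between -0.21 and 0.050.

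The lists around the family were read in the same way. Of 26 tested SR-related proteins, which carry RS stretches but are not classical SR proteins, 23 lay below 0 in this comparison (median -0.25), and without WT library 3 the count was 6 of 26 with a median of 0.051. Of 11 kinases and carriers of SR proteins 8 lay below 0, and 4 without that library. Among 25 hnRNP proteins, which often oppose SR proteins at splice sites, 15 lay below 0 with or without it. Among 20 core snRNP and U1 or U2 proteins 14 lay above 0 with or without it, but 8 without KO library 3. Scaled to library size alone, which moves the median of all genes as given above, 16 of the 20 snRNP genes, all 25 hnRNP genes and all 26 SR-related genes lay below 0. No gene of these lists was called.

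The IP compared between genotypes asks which mRNAs came down with the antibody more in WT than in KO. No SR gene passed the test and 9 of 10 estimates were lower in WT IP than in KO IP. The 4 genes with the smallest p were Srsf11, Srsf6, Srsf7 and Srsf5. Each lay lower in both WT IP libraries than in both KO IP libraries, as did 20.8% of all genes tested, while 20.3% lay higher. Over all genes, 0.0% of 10730 genes were called, while 10.5% had an unadjusted p under 0.05.

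Srsf11 was at 103 and 93.5 CPM in WT IP and 147 and 227 CPM in KO IP. Its WT minus KO difference was -0.95 ± 0.25 on the log2 scale (SE, edgeR adjusted p = 0.214). Srsf6 was at 98.8 and 84.9 CPM in WT IP and 151 and 157 CPM in KO IP, a difference of -0.75 ± 0.23 (SE, edgeR adjusted p = 0.263). For Srsf6 the replicates lay close together in both genotypes. Srsf7 was at 45.8 and 18.3 CPM in WT IP and 54.8 and 81.3 CPM in KO IP, a difference of -1.13 ± 0.36 (SE, edgeR adjusted p = 0.277), with a wide spread between libraries. Srsf5 was at 36.6 and 46.4 CPM in WT IP and 74.9 and 64.1 CPM in KO IP, a difference of -0.74 ± 0.26 (SE, edgeR adjusted p = 0.326).

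Srsf3 stood at 73.6 and 64.3 CPM in WT IP and 101 and 87.8 CPM in KO IP, and Srsf10 at 12.2 and 12.9 CPM and at 14.4 and 20.5 CPM. Their differences were -0.45 ± 0.24 and -0.53 ± 0.41 (SE). With the 4 genes above, 6 of the 10 were lower in WT IP without overlap, as were 20.8% of all genes tested (20.3% were higher). Of the 10 genes 4 had an unadjusted p under 0.05 in that direction, as did 5.68% of all genes. The remaining 4 members overlapped between genotypes. Srsf1, at 58.0 and 61.2 CPM in WT IP and 50.0 and 60.6 CPM in KO IP, was the single member with an estimate above 0 (0.082 ± 0.25, SE, and -0.064 when scaled to library size alone). Srsf9 was at 53.0 and 43.2 CPM in WT IP and 37.5 and 60.6 CPM in KO IP (-0.085 ± 0.29, SE). Srsf4 and Srsf2 differed by -0.12 ± 0.68 and -0.31 ± 0.60 (SE) on 4 to 43 counts per library.

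The median of the 10 genes was -0.49 against -0.01 over all genes tested, of which 50.9% lay below 0. Without each IP library in turn the median stayed between -0.59 and -0.48, with 7 to 9 of 10 genes below 0. The calls were less stable. DESeq2 called Srsf11 (adjusted p = 0.0427) among 57 genes. The edgeR test called Srsf7 without WT IP 1, and Srsf7 and Srsf11 without KO IP 1, where the lone library was assumed to vary like the other group. With 200 genes, drawn at random over all levels, changed in simulated counts of this design, edgeR recovered 14% of 2-fold and 67% of 4-fold changes. For genes so drawn, 2-fold differences would mostly be missed. Recovery at the levels of the SR genes was not simulated.

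Summed markers of some other cells also stood apart between the IP groups, and those of others did not. The summed fibroblast level, over 4 markers, was 2651 to 3619 CPM in WT IP and 5717 to 6226 CPM in KO IP, and the erythroid level, over 5 markers, was 155 to 310 CPM and 483 to 777 CPM. Endothelial markers, 4 in number, summed to 421 to 432 CPM and 488 to 818 CPM. Muscle marker sums overlapped, at 111695 to 137268 CPM in WT IP and 84521 to 112353 CPM in KO IP. No marker of these 4 lists was at 0 in both libraries of an IP group. Immune marker sums overlapped, at 128 to 294 CPM in WT IP and 140 to 154 CPM in KO IP. So did those of adipocytes (481 to 844 and 469 to 647 CPM) and islets (42.0 to 337 and 140 to 367 CPM). Markers of proliferating cells overlapped as well, at 6.23 to 38.2 and 9.60 to 20.9 CPM. What part any of these markers had in the SR gene values was not tested.

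Genes that act with the SR proteins mostly lay in the same direction in IP. Their lists, like the members, were chosen with earlier results of these data known, so this is a description. Of all genes tested, 50.9% lay below 0 and 5.68% did so with an unadjusted p under 0.05. Among the 11 kinases and carriers 10 lay below 0 (median -0.53), 5 of them with an unadjusted p under 0.05 and none called. Clk1, which phosphorylates RS domains and whose own mRNA is known to be held in the nucleus with introns retained, differed by -1.46 ± 0.26 (SE, edgeR adjusted p = 0.103), with means of 95.9 CPM in WT IP and 261 CPM in KO IP. Clk4 and Clk3 differed by -0.93 ± 0.28 and -0.94 ± 0.28 (SE), and Nxf1, the export receptor, by -0.76 ± 0.22 (SE). Of 26 SR-related proteins 21 lay below 0 (median -0.57), 13 with an unadjusted p under 0.05 and none called. Rsrp1 differed by -1.48 ± 0.24 (SE, edgeR adjusted p = 0.0992), Pnisr by -1.35 ± 0.32 and Luc7l2, a partner of the U1 snRNP, by -1.03 ± 0.22 (SE).

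The other lists had medians on both sides of 0. They stand beside the same shares of all genes, 50.9% below 0 and 5.68% below 0 with an unadjusted p under 0.05. Of 23 hnRNP genes tested 18 lay below 0 with a median of -0.091, and 2, Hnrnpm and Hnrnph1, had an unadjusted p under 0.05. The 19 core snRNP and U1 or U2 genes had a median of -0.02, with Sf3b5, a subunit of the U2 snRNP, at 1.26 ± 0.31 and Sf3b1 at -0.67 ± 0.26 (SE). Among 6 nuclear-retained RNAs 5 lay below 0 (median -0.89), 4 with an unadjusted p under 0.05, and Neat1, the scaffold of paraspeckles, differed by -1.41 ± 0.23 (SE, edgeR adjusted p = 0.0992). The 14 genes of nonsense-mediated decay and the exon junction had a median of 0.079, and 9 muscle splicing regulators one of -0.25. None of these genes was called.

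The IP was next set against total RNA within each genotype, which shows how far each mRNA was recovered relative to its level in muscle. This contrast also holds every difference between an IP and a total RNA library. In WT, 6 of the 10 SR genes passed the test, 2 higher and 4 lower in IP, where 37.0% of 14399 genes were called (17.6% higher and 19.4% lower). In KO, 5 of 10 passed, 4 higher and 1 lower, where 36.5% were called (17.7% higher and 18.8% lower). Called members pointed in both directions in each genotype.

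Srsf9 and Srsf3 were higher in IP in both genotypes. Srsf9 was at 13.2, 13.4 and 16.5 CPM in WT total RNA and 53.0 and 43.2 CPM in WT IP, a log2 difference of 1.74 ± 0.23 (SE, edgeR adjusted p = 7.86e-05). In KO it was at 11.9, 12.7 and 13.0 CPM in total RNA and 37.5 and 60.6 CPM in IP, 2.01 ± 0.23 higher (SE, edgeR adjusted p = 3.87e-05). Srsf3 rose by 0.86 ± 0.20 in WT (SE, edgeR adjusted p = 0.0040) and by 1.64 ± 0.20 in KO (SE, edgeR adjusted p = 5.24e-05). For both genes every IP library lay above every total RNA library of its genotype, as for 27.4% of all genes in WT and 29.9% in KO.

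Srsf2 was lower in IP in both genotypes. It fell from 64.3 to 115 CPM in WT total RNA to 5.89 and 16.8 CPM in WT IP, a difference of -2.88 ± 0.44 (SE, edgeR adjusted p = 0.00022). In KO it was at 60.6 to 73.8 CPM in total RNA and 23.1 and 8.09 CPM in IP, a difference of -2.41 ± 0.45 (SE, edgeR adjusted p = 0.00099). The IP values rest on 14 to 43 counts per library, all below the total RNA values, as for 32.5% of all genes in WT and 31.3% in KO. Srsf5 was also lower in WT IP, at -2.27 ± 0.39 (SE, edgeR adjusted p = 0.00058), and its KO difference of -0.96 ± 0.37 did not pass (SE, edgeR adjusted p = 0.0580).

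Srsf4 and Srsf1 were lower in WT IP, by -1.14 ± 0.33 (SE, edgeR adjusted p = 0.0146) and -1.0 ± 0.31 (SE, edgeR adjusted p = 0.0209). Neither call was firm. Without WT total RNA 3 the Srsf1 difference was -0.55 (edgeR adjusted p = 0.0522), without either WT IP library both genes lost the call, and with the replicate block Srsf4 was at -0.98 (edgeR adjusted p = 0.0755). In KO they differed by -0.86 ± 0.33 and -0.60 ± 0.31 (SE) and did not pass. Srsf7 and Srsf11 were called in KO alone, at 1.46 ± 0.34 and 1.13 ± 0.27 (SE, edgeR adjusted p = 0.0043 and 0.0047), and stood at 0.00028 ± 0.36 and -0.17 ± 0.27 in WT (SE).

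Srsf6 and Srsf10 passed in neither genotype. Srsf6 differed by -0.54 ± 0.27 in WT (SE), where WT IP 1 at 98.8 CPM was level with WT total RNA 2 at 98.9 CPM. In KO it differed by 0.60 ± 0.27 (SE, edgeR adjusted p = 0.0918). Both KO IP libraries lay above the 3 KO total RNA libraries, as for 29.9% of all genes. Srsf10 differed by -0.44 ± 0.29 in WT and 0.33 ± 0.28 in KO (SE). With samples paired by replicate number, 8 genes were called in KO: Srsf1 at -0.74 (edgeR adjusted p = 0.0027), Srsf5 at -1.09 (edgeR adjusted p = 2e-06) and Srsf6 at 0.52 (edgeR adjusted p = 0.0304) were added. That fit gave all genes of a level the same spread. Without KO IP 2, Srsf9 and Srsf3 alone stayed past the threshold, and Srsf2 was at -1.59, Srsf7 at 1.10 and Srsf11 at 0.76.

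**Figure D3:**
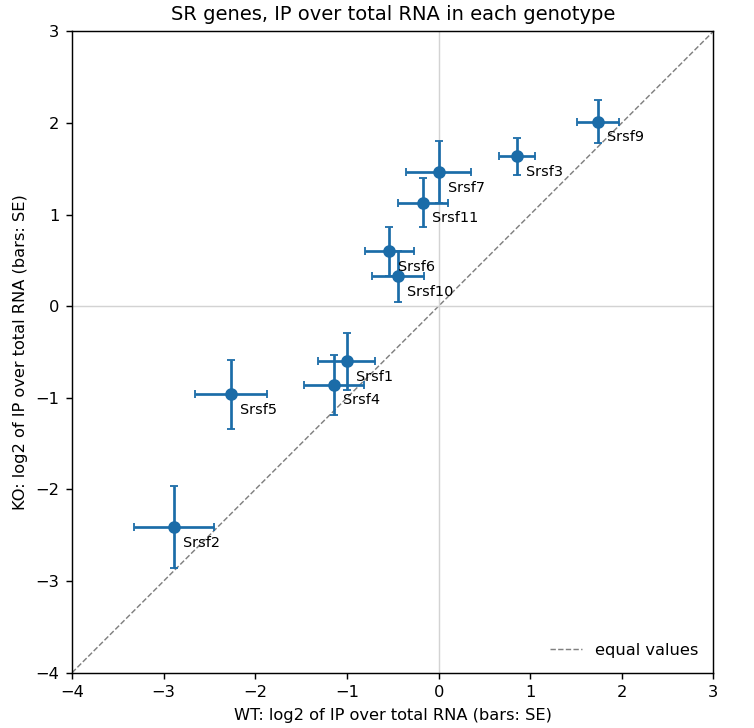
Log2 difference of IP over total RNA for each SR gene in WT (horizontal axis) and KO (vertical axis), with SE bars and a dashed line of equal values. The genes run from Srsf2 at -2.88 and -2.41 to Srsf9 at 1.74 and 2.01, and all 10 points lie above the line.

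Markers of cell types moved with this contrast as well. Of all genes tested, 19.4% in WT and 18.8% in KO were called lower in IP, and 17.6% and 17.7% higher. Of 12 muscle markers 7 in WT and 9 in KO were called lower in IP and none higher. Of 5 erythroid markers 1 in WT and 4 in KO were called higher and 1 in KO lower. Islet markers summed to 1.00 to 1.85 CPM in WT total RNA, where Sst and Iapp were at 0, and to 42.0 to 337 CPM in WT IP. In KO they summed to 2362, 2.07 and 2.23 CPM in total RNA libraries 1, 2 and 3, and to 140 to 367 CPM in IP. KO total RNA 1 thus enters the islet values of KO and of the genotype difference. Of the 6, 2 were called higher in WT and none in KO, and 5 had an unadjusted p under 0.05 in the test of the genotype difference in IP over total RNA. The part of these markers in the SR gene values was not tested.

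The order of the 10 genes was nearly the same in both genotypes, with a Spearman rho of 0.988 over 10 genes and 0.703 over 14399 genes. The contrasts share no library but come from one fit and one kind of comparison, so this is a description. Over all genes tested, longer transcripts stood lower in WT IP relative to total RNA (Spearman rho -0.27 over 13093 genes). Over the 10 members that rho was 0.042. Srsf9 has the shortest main transcript of the members at 1162 bases, followed by Srsf5 at 1498 and Srsf2 at 1899 bases. The part of transcript length in the SR gene values was not tested.

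Lists of related genes were mixed in these contrasts. In WT, 10 of 26 SR-related genes were called lower in IP and none higher (19.4% and 17.6% of all genes), with Srrm2, a large speckle scaffold, at -2.44 ± 0.33 and Pnisr at -3.35 ± 0.49 (SE). In KO, 6 were called lower and 8 higher (18.8% and 17.7% of all genes), among them Tra2a, a splicing activator with an RS domain on each side of its RNA recognition motif, at 1.73 ± 0.34 (SE). Of 25 hnRNP genes 11 were called lower and 2 higher in WT, and 8 lower and 2 higher in KO. Of the 11 kinases and carriers 2 were called lower and 1 higher in WT, and 3 lower and 5 higher in KO, with Clk1 at 1.87 ± 0.31 and Clk4 at 1.76 ± 0.27 (SE). Malat1, a nuclear RNA of the speckles, was lower in IP in both genotypes, at -2.88 ± 0.33 in WT and -1.58 ± 0.31 in KO (SE). Of 20 snRNP genes 4 were called higher in each genotype, close to the share over all genes, and 2 in WT and 1 in KO were called lower.

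The difference between genotypes in IP over total RNA was tested as an interaction. All 10 estimates were below 0, where IP over total RNA was lower in WT than in KO, and none passed the test, in which 1 of 14399 genes (0.00694%) was called. The estimates ran from -0.27 ± 0.33 for Srsf9 to -1.46 ± 0.49 for Srsf7 (SE), with a median of -0.77 against -0.02 over all genes, of which 51.3% lay below 0. Srsf11 at -1.30 ± 0.38, Srsf6 at -1.13 ± 0.38, Srsf7, Srsf3 at -0.78 ± 0.28 and Srsf5 at -1.30 ± 0.52 (SE) had an unadjusted p under 0.05, as did 6.45% of all genes in this direction. Their edgeR adjusted p ran from 0.342 to 0.365. DESeq2 called no SR gene and 17 genes in all.

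This contrast joins the total RNA and IP differences, so the high WT total RNA library enters it. Without WT total RNA 3 the median of the 10 genes was -0.65, with 9 of 10 below 0 and none called. With samples paired by replicate number the median was -0.49 and the smallest edgeR adjusted p among the 10 was 0.0849, while 147 genes were called. The calls of single genotypes for Srsf7, Srsf11, Srsf5, Srsf4 and Srsf1 are therefore not shown to differ between genotypes.

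**Figure D4:**
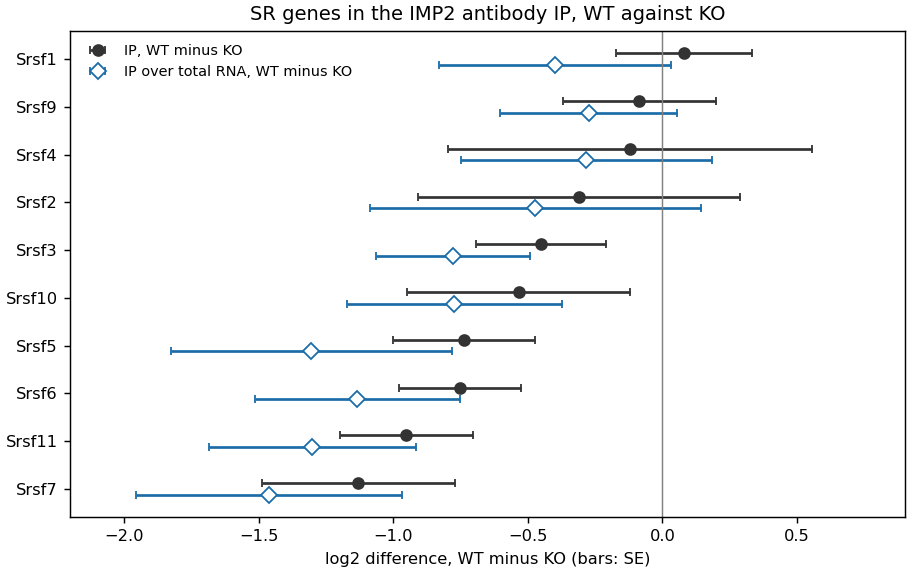
Log2 difference between WT and KO for each SR gene in the IP libraries alone (filled circles) and in IP over total RNA (open diamonds); bars are SE. In IP alone Srsf7 lies lowest at -1.13 and Srsf1 lies at 0.082; in IP over total RNA all 10 genes lie between -1.46 and -0.27.

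Genes with a profile most like the mean of the family over the 10 libraries were chosen by the root mean square difference of centred log2 CPM. Among 8052 candidates with a mean of at least 10 CPM, the nearest included Nvl (0.0915), Kdm3a (0.0985), Clk2 (0.108) and Slk (0.115), where the median candidate was at 0.520. Nvl was at 17.2, 16.0 and 32.3 CPM in WT total RNA and 16.8, 19.0 and 14.4 CPM in KO total RNA, with the same single high library. Clk2, a kinase of RS domains, was at 24.8, 23.7 and 37.9 CPM in WT total RNA, 24.4, 27.5 and 19.8 CPM in KO total RNA, 21.0 and 18.7 CPM in WT IP and 30.7 and 33.8 CPM in KO IP. Members were themselves spread around their mean. Srsf10 (0.148) and Srsf6 (0.166) lay closest, while 5 of 10 lay farther from it than the median candidate: Srsf7 (0.560), Srsf5 (0.700), Srsf3 (0.709), Srsf9 (0.998) and Srsf2 (1.30).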

How the data were processed

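RNA libraries of mouse skeletal muscle were made with an Illumina TruSeq kit, per the labels' protocols. The authors deposited raw read counts per Ensembl gene, 1 file per library, made with STAR and HTSeq on mm10 (GRCm38), per the submitters' processing notes; versions, strand setting and annotation release are not given in the sources used here. Rows naming no gene were left out of library sizes: reads aligned to several places were 26.1% to 43.3% of all reads counted. Reads in no gene were 8.54% to 11.2% and ambiguous reads 3.30% to 6.03%. Reads shared by similar genes would thus be missing from the counts.

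Symbols came from GENCODE vM21. Counts were filtered with filterByExpr, scaled by TMM and tested with edgeR 4.0.16 (quasi-likelihood, Benjamini-Hochberg over all genes tested, threshold 0.05) in R 4.3.3. SE is the absolute log2 difference divided by the square root of F. KO against WT used the 6 total RNA or the 4 IP libraries, and IP against total RNA and the interaction used all 10. Alternatives were DESeq2 1.42.0, limma-voom (limma 3.58.1), DESeq2 size factors or library size alone within edgeR, no filter, the replicate block and leaving out each library. The test was checked on simulated counts with 200 changed genes.

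Deviations of same-numbered samples gave r of 0.10, -0.14 and -0.33 between genotypes in total RNA and -0.05 in IP. Differently numbered total RNA samples gave r from -0.37 to 0.40, so no pairing of genotypes by number was seen there. With 2 IP libraries per group, each r with an IP library has a mirror value of opposite sign. Those values can therefore neither show nor exclude pairing. Between IP and total RNA of 1 genotype r was 0.12, 0.11, 0.14 and 0.17 over 4 pairs, with the same limit, and the block is given beside those results. It leaves total RNA library 3 of each genotype unpaired.

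The members and lists were chosen with earlier results of these data known. Named genes were the 10 members, Igf2bp2, up to 4 genes of smallest p per list and comparison, and the 5 genes nearest to the family's mean profile (log2 CPM with a pseudocount of 0.5), of which 1 is not reported here. Counting sets a floor of 3 counts, 0.203 to 0.310 CPM in total RNA and 0.743 to 3.27 CPM in IP, which covers counting error alone.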

Additional observations from a re-analysis of the deposited data

How the results depend on the processing

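Of 640 values for single SR genes over all alternatives, 584 kept their direction and side of the threshold, 27 changed sign, 18 newly passed and 11 no longer passed. No alternative called an SR gene in total RNA, where the number of genes called ranged from 0 to 64. In IP between genotypes, 1 SR gene was called with DESeq2, 2 (Srsf7 and Srsf11) with no filter among 103 genes, and 0 to 2 with a library left out. With a library left out, 4 to 6 were called in WT IP over total RNA and 2 to 5 in KO IP over total RNA. The replicate block called 8 in KO. In IP between genotypes, where pairing by number could not be checked, it called 0 of 10 SR genes but 28 genes in all. The block changed no other call than those in the text. With no filter 3 SR genes (Srsf5, Srsf7 and Srsf11) among 263 genes passed in the interaction. With no filter in the IP and 10-library fits, and with the block over all 10 libraries, edgeR estimated infinite prior degrees of freedom, so genes of a level shared 1 spread.

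With a library left out, the total RNA differences ran from -0.45 to 0.0034 for Srsf2, -0.23 to 0.045 for Srsf4, -0.82 to 0.050 for Srsf5 and -0.56 to 0.0034 for Srsf6, above 0 without WT total RNA 3. In IP between genotypes they ran from -1.25 to 0.49 for Srsf2 (0.045 with limma-voom), -0.020 to 0.24 for Srsf1 (-0.064 with library size alone), -0.33 to 0.34 for Srsf9 and -0.34 to 0.37 for Srsf4. In WT IP over total RNA, Srsf7 ran from -0.82 to 0.44 and was -0.10 with limma-voom, -0.047 with no filter and -0.17 without WT total RNA 2 and KO total RNA 1. Srsf11 there ran from -0.31 to 0.15 and was 0.15 with the block. In KO, Srsf10 ran from -0.028 to 0.54. In the interaction Srsf1 ran from -0.59 to 0.050 (0.19 with the block), Srsf2 from -1.39 to 0.20, Srsf4 from -0.47 to 0.28 and Srsf9 from -0.54 to 0.16. The cause was not tested. The summed WT total RNA level was 759 CPM, 576 to 855 CPM with a library left out, and 168 CPM per kb of exon against 856 CPM per kb of coding sequence, which is shorter.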
